A study of Homo sapiens with 6 samples.

Results

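The genes described here are the receptors for platelet-derived growth factor (PDGF) and fibroblast growth factor (FGF) and a set of their ligands, in MCF10A cells grown with and without added growth factors. They were chosen by name: 10 genes were listed, PDGFRA, PDGFRB, PDGFA, PDGFC, FGFR1, FGFR2, FGFR3, FGFR4, FGF2 and FGF12, and 9 of them were analysed among 19198 genes. FGFR3 was not analysed here. MCF10A is an immortalised, non-tumorigenic human mammary epithelial line, and all 6 cultures shared the same base medium with 5% horse serum. The 3 control samples also received 10 µg/ml insulin, 20 ng/ml EGF, 100 ng/ml cholera toxin and 0.5 µg/ml hydrocortisone, while the 3 growth factor-depleted samples received none of these 4 additions. RNA-Seq of ribosomal RNA-depleted total RNA was used to ask how gene expression differed when cells changed from a cobblestone to a spindle shape in the depleted medium. The labels do not say whether the 3 samples of a condition came from separate cultures, so the p-values measure the spread between these samples only.

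PDGF ligands are dimers of A, B, C or D chains that bring receptor tyrosine kinases together in pairs. PDGFRA binds the A, B and C chains, PDGFRB binds the B and D chains, and in many organs epithelial cells make the ligand while the neighbouring mesenchymal cells carry the receptors. FGF ligands bind their receptors together with heparan sulfate, and FGF signalling through FGFR2 is needed for mammary epithelial branching.

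Values are normalized counts: reads on a gene divided by a factor that sets the samples to a common depth. Between 7472418 and 28672630 reads fell on genes in a sample, so that 3 reads corresponded to 1.76 to 6.71 normalized counts. A gene was called changed at an adjusted p under 0.05 with at least a 2-fold difference in the limma fit of log2(normalized count + 1) over 16988 genes with a mean of at least 10. By that rule 6.33% of all genes tested were called, 4.36% upward and 1.97% downward. All 10 epithelial markers examined were analysed, and keratin and E-cadherin transcripts were present in every sample, but depleted replicate 1 stood apart: its CDH1 (E-cadherin) count was 610 and its KRT5 count 562, against 13234 and 13118 for CDH1 and 10908 and 14997 for KRT5 in depleted replicates 2 and 3. It was not lowest for all epithelial markers: its KRT14 count of 980 lay above 193 and 306, its ITGA6 count of 6817 above 3668 and 3434, and its ITGB4 count of 13337 above 7270 and 5894. The log2 differences of the members are therefore also given without it where its removal moved them by more than 1.5 times or changed a call.

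The promoter sequences of the 2 called members, PDGFRA and PDGFRB, are shown because these are the members whose levels passed the test. Each window runs from 250 bases before to 50 bases after a transcription start in RefSeq (GRCh38.p14), is written 5′ to 3′ on the gene's strand, and marks matches to a GC box (GGGCGG), an AP-1 site (TGANTCA) or a CCAAT box (CCAAT), on either strand, in capitals. RefSeq gives PDGFRA 2 such windows, chr4:54229043-54229342 and chr4:54233710-54234009, both on the plus strand, and PDGFRB 1, chr5:150155796-150156095, on the minus strand.
PDGFRA, upstream start: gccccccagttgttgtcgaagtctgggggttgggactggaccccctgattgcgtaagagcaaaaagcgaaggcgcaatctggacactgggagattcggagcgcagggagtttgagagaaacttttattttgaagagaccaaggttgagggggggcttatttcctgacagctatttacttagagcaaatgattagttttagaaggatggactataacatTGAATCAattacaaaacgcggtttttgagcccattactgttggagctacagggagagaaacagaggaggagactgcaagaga
PDGFRA, downstream start: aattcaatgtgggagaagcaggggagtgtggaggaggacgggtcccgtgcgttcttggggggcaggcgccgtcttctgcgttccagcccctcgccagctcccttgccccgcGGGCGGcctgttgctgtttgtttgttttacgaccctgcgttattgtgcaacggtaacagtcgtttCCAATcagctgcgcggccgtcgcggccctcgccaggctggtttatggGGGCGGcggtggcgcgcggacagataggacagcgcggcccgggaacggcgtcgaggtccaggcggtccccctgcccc
PDGFRB: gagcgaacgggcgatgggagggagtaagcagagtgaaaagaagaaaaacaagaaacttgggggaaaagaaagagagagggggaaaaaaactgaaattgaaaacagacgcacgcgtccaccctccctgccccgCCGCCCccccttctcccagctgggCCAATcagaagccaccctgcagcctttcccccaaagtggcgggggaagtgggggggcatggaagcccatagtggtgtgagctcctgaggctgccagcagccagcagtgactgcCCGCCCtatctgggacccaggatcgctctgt

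The upstream PDGFRA window held 47% G and C with 8 CpG dinucleotides. Its match to the AP-1-like pattern, TGAATCA, began 32 bases before the start, at -32. The middle base of that match is A, and it is not taken as an AP-1 site here. The downstream PDGFRA window was richer, at 66.7% G and C with 32 CpG, with GC boxes at -139 and -27 and a CCAAT match at -74. The PDGFRB window held 59.3% G and C with 11 CpG, GC boxes at -118 and 20, and a CCAAT match at -94. Across 35116 RefSeq promoter windows of the same length the median was 58.7% G and C with 14 CpG. Of these windows 45% held a GC box, 34.6% a CCAAT box and 7.71% a match to the AP-1-like pattern. A RUNX core (TGTGGT), an E-box of the type bound by SNAI and ZEB factors (CAGGTG) and a TATA box (TATAAA), found in 13.1%, 20.6% and 11.5% of all windows, had no match in these 3 windows. A match of letters is a description of the window and not a measured binding site.

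Both PDGF receptors rose when growth factors were removed, from almost no reads in the controls. PDGFRA (ENSG00000134853, chr4:54229280-54298245, plus strand, hg38) stood at 1.25, 0.586 and 0.984 normalized counts in control replicates 1 to 3 and at 60.4, 34.1 and 53.7 in depleted replicates 1 to 3. Each control value was 1 read, and the depleted values were 66, 52 and 24 reads, so the groups did not overlap. The mean went from 0.941 ± 0.336 to 49.4 ± 13.7 (SD, n = 3 each), a difference of 4.67 ± 0.61 (SE) on the log2(normalized count + 1) scale (limma adjusted p = 0.00396). Because the controls held so few reads, the fold is better read from the pooled reads, whose depth-corrected ratio was 54.4, with an exact 95% interval of 18.2 to 267 that covers counting error only. The fitted log2 difference depended on the pseudocount and tool and ran from 2.41 to 5.83 over the alternatives tried. Exons of an overlapping readthrough gene on the same strand, ENSG00000282278, cover 16.1% of the PDGFRA exon length, and that gene was not analysed here.

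PDGFRB (ENSG00000113721, chr5:150113839-150155872, minus strand) showed the widest difference of the 9 genes. It measured 3.76, 5.27 and 11.8 normalized counts in the controls and 3322, 349 and 447 in the depleted samples. Every depleted sample lay far above every control, but depleted replicate 1 was 8.35 times the mean of the other depleted samples. The mean was 6.95 ± 4.28 in the controls and 1373 ± 1689 in the depleted samples (SD, n = 3 each), a log2 difference of 6.79 ± 0.85 (SE; limma adjusted p = 0.00339). Without depleted replicate 1 the log2 difference was 5.77 (limma adjusted p = 0.00365), and that of PDGFRA was 4.51 (limma adjusted p = 0.0159). Both receptors were called in all 6 fits that left out 1 sample, with log2 differences of 4.51 to 4.91 for PDGFRA and 5.77 to 7.39 for PDGFRB. In all, 2 of the 9 members were called, both upward, where 4.36% of all genes tested were. The median log2 difference of the 9 was 1.67, and -0.03 over all genes tested. PDGFRA and PDGFRB, with control means of 0.941 and 6.95, reached the mean required for testing only through the depleted samples. The count and median of the members therefore depend on that filter and cannot be compared with the values over all genes.

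**Figure D1:**
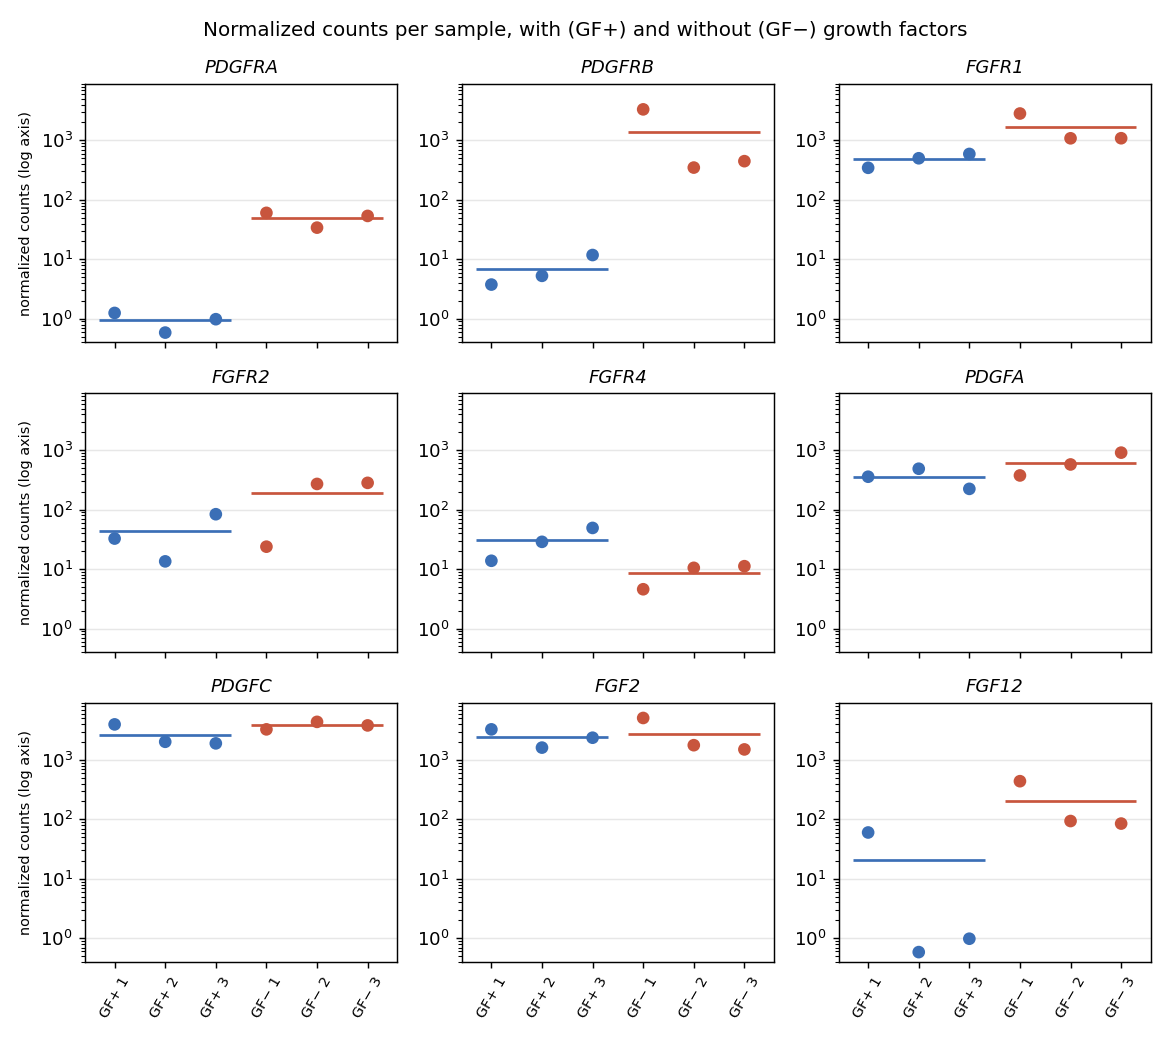
Normalized counts (log axis) of the 9 genes in each of the 3 control and 3 growth factor-depleted samples, with 1 point per sample and a bar at the group mean. PDGFRA and PDGFRB show the widest gaps between groups, while PDGFA, PDGFC, FGFR2 and FGF2 overlap.

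Per kilobase of merged exon length, PDGFRB was the larger share of the PDGF receptor reads in every sample, on few reads in the controls. The 2 receptors together made 0.658, 0.800 and 1.76 normalized counts per kb in the controls and 472, 52.5 and 68.3 in the depleted samples. PDGFRB took 80.1% to 94.1% of that sum in the controls and 91.8% to 98.7% in the depleted samples, so its share overlapped between conditions while the sum did not. The control shares rest on 3, 9 and 12 PDGFRB reads against 1 PDGFRA read each, and their exact 95% binomial intervals reached down to 24.4%, 62.5% and 70.4%, for counting error only.

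The FGF receptors did not pass the test. FGFR1 (ENSG00000077782, chr8:38400215-38468834, minus strand), the FGF receptor common in mesenchymal cells, measured 346, 500 and 591 normalized counts in the controls and 2830, 1084 and 1087 in the depleted samples. All depleted samples were above all controls, with depleted replicate 1 at 2.61 times the mean of the others. The log2 difference was 1.67 ± 0.43 (SE; 95% interval 0.69 to 2.65), with a limma adjusted p of 0.0577. The call depended on the method: DESeq2 on recovered reads gave an adjusted p of 0.00329, edgeR 0.0523, and limma 0.0411 without control replicate 3 and 0.107 without depleted replicate 1.

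FGFR2 (ENSG00000066468, chr10:121478332-121598458, minus strand), which in epithelial cells carries the IIIb exon, measured 32.6, 13.5 and 83.6 normalized counts in the controls and 23.8, 270 and 282 in the depleted samples. Depleted replicates 2 and 3 were above every control, whereas depleted replicate 1 lay within the control range, at 0.0862 times the mean of the other depleted samples. The log2 difference was 1.84 ± 1.02 (SE; 95% interval -0.49 to 4.18; limma adjusted p = 0.375). Without depleted replicate 1 it was 3.0 (limma adjusted p = 0.0656). These gene-level counts do not separate the IIIb and IIIc forms of FGFR2.

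FGFR4 (ENSG00000160867, chr5:177086905-177098144, plus strand), an FGF receptor best known from liver, was the 1 member lower in every depleted sample. It measured 13.8, 28.7 and 49.2 normalized counts in the controls and 4.58, 10.5 and 11.2 in the depleted samples, on 5 to 50 reads. The groups did not overlap, but the log2 difference of -1.61 ± 0.68 (SE; 95% interval -3.16 to -0.05) was not called (limma adjusted p = 0.233). An exact permutation test of 3 against 3 samples cannot go below p = 0.1 for any single gene.

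**Figure D2:**
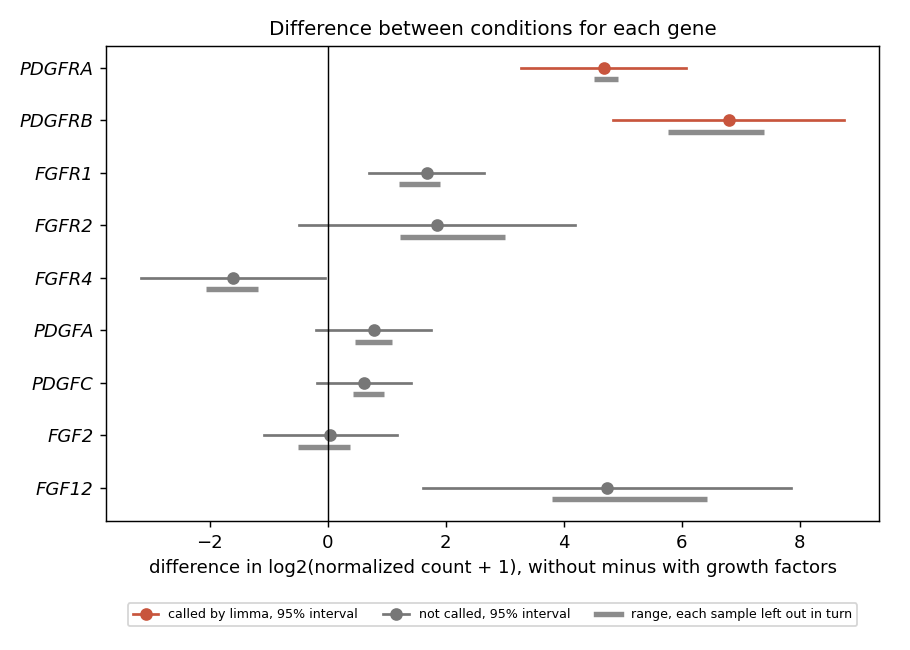
Log2 difference, depleted minus control, on the log2(normalized count + 1) scale for each of the 9 genes, with the limma 95% interval as a line and the range over fits that each left out 1 sample as a grey bar. PDGFRA at 4.67 and PDGFRB at 6.79 were called, and the FGF12 estimate of 4.73 has the widest interval, 1.61 to 7.85.

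FGFR1 was the leading FGF receptor analysed in every sample. Of the FGFR1, FGFR2 and FGFR4 sum per kb it took 81.4%, 81.3% and 70.1% in the controls and 98.7%, 79.2% and 78.5% in the depleted samples, so its share overlapped. FGFR4 took 11.6%, 16.7% and 20.9% in the controls and 0.571%, 2.74% and 2.89% in the depleted samples, with no overlap. The FGFR2 share was 7.01%, 2.0% and 9.06% in the controls and 0.759%, 18.1% and 18.6% in the depleted samples. The 3 receptors summed to 24.7, 35.8 and 49.0 normalized counts per kb in the controls and 167, 79.5 and 80.5 in the depleted samples. These shares leave out FGFR3 and were not tested. They also depend on the merged exon length, which was 17201 bases for FGFR1, 18813 for FGFR2 and 4810 for FGFR4. In normalized counts without that length, the control means were 43.2 for FGFR2 and 30.6 for FGFR4.

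**Figure D3:**
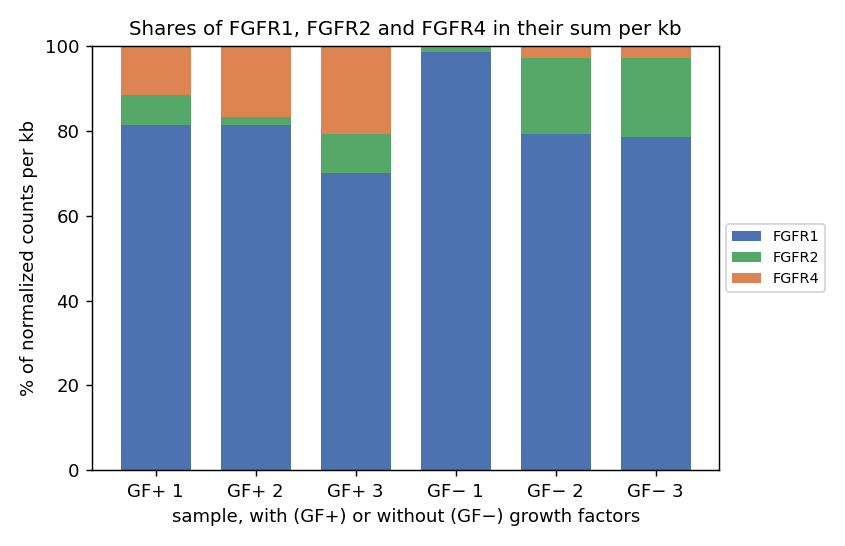
Share in percent of FGFR1, FGFR2 and FGFR4 in their sum of normalized counts per kb, stacked from 0 to 100 for each of the 6 samples. FGFR1 holds 70.1% to 98.7% of the sum, and the FGFR4 part is 11.6% to 20.9% in the controls and 0.571% to 2.89% in the depleted samples.

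PDGFA, PDGFC and FGF2, the secreted ligands among the members, were expressed in both conditions and none was called. PDGFA (ENSG00000197461, chr7:497258-520296, minus strand), the chain that signals through PDGFRA, measured 357, 487 and 223 normalized counts in the controls and 375, 574 and 908 in the depleted samples. The groups overlapped, with a log2 difference of 0.78 ± 0.43 (SE; 95% interval -0.20 to 1.75; limma adjusted p = 0.369). PDGFC (ENSG00000145431, chr4:156760454-156971799, minus strand), a chain released in latent form and activated by proteolysis, measured 3954, 2016 and 1897 in the controls and 3262, 4360 and 3801 in the depleted samples. Control replicate 1 lay among the depleted samples, and the log2 difference was 0.61 ± 0.35 (SE; 95% interval -0.19 to 1.41; limma adjusted p = 0.390).

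FGF2 (ENSG00000138685, chr4:122826682-122898236, plus strand), basic fibroblast growth factor, measured 3262, 1609 and 2361 normalized counts in the controls and 5069, 1767 and 1500 in the depleted samples. The groups overlapped, and the log2 difference was 0.04 ± 0.49 (SE; 95% interval -1.09 to 1.16; limma adjusted p = 0.981). Its sign was not stable, and it was -0.51 without depleted replicate 1. The antisense gene NUDT6 overlaps 11.8% of the FGF2 exon length and measured 75.4 to 227 normalized counts, well below FGF2 itself.

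FGF12 (ENSG00000114279, chr3:192139390-192767764, minus strand) is an FGF homologous factor that stays inside the cell and binds voltage-gated sodium channels instead of FGF receptors. It measured 60.2, 0.586 and 0.984 normalized counts in the controls and 438, 93.8 and 85.0 in the depleted samples. Control replicates 2 and 3 held 1 read each while control replicate 1 held 48, and every depleted sample was above every control. The log2 difference was 4.73 ± 1.37 (SE; limma adjusted p = 0.0845), which did not pass the threshold. Without control replicate 1 it was 6.43 (limma adjusted p = 0.0119), and without depleted replicate 1 it was 3.97 (limma adjusted p = 0.211). Of the 9 members, 4 had every depleted sample above every control (PDGFRA, PDGFRB, FGFR1 and FGF12), a state reached by 13.5% of all genes tested. FGFR4 alone was below every control, as were 12.1% of all genes. PDGFRA and PDGFRB were tested only because of their depleted samples, so the count of 4 cannot be compared with that 13.5%.

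On the per kb scale, PDGFC and FGF2 led in the controls at 437 ± 193 and 354 ± 122 normalized counts per kb (SD, n = 3) and overlapped each other. PDGFA followed at 77.5 ± 28.7, then FGFR1 at 27.9 ± 7.21, FGFR4 at 6.35 ± 3.70, FGFR2 at 2.3 ± 1.93, FGF12 at 1.79 ± 2.99, PDGFRB at 0.973 ± 0.599 and PDGFRA at 0.0986 ± 0.0352. FGFR4, FGFR2 and FGF12 each overlapped the next gene in that order, and the other neighbours from FGF2 downward were separate. The order depends on the merged exon length, which was 4810 bases for FGFR4, 18813 for FGFR2 and 11469 for FGF12. In normalized counts without that length, the control mean of FGFR2 at 43.2 lay above that of FGFR4 at 30.6. The place of FGF12 above PDGFRB rested on control replicate 1, at 5.25 per kb. In control replicates 2 and 3 FGF12 stood at 0.0511 and 0.0858, below PDGFRB at 0.739 and 1.65. In the depleted samples PDGFC (635 ± 91.5) and FGF2 (409 ± 292) again came first, and PDGFRB followed at 192 ± 237, overlapping both FGF2 and PDGFA (135 ± 58.6). FGFR1 stood at 96.9 ± 58.6, FGF12 at 17.9 ± 17.6, FGFR2 at 10.2 ± 7.74, PDGFRA at 5.17 ± 1.43 and FGFR4 at 1.82 ± 0.755. FGFR1 was separate from FGF12, and PDGFRA from FGFR4, while the other neighbours overlapped. The place of PDGFRB rested on depleted replicate 1, at 466 per kb: in depleted replicates 2 and 3 it stood at 48.9 and 62.7, below FGFR1 at 63.0 and 63.2 and below PDGFA at 125 and 198, and without replicate 1 it ranked 5 of 9 with a mean of 55.8. PDGFRA lay below PDGFRB in each depleted sample on this scale.

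The genes whose mean-centred log2 values lay closest to PDGFRA over the 6 samples were PLAU, ARNT2 and GNG11, with root mean square differences of 0.24, 0.30 and 0.39. Closest to PDGFRB were the collagen receptor subunit ITGA11, the collagen gene COL14A1 and ANXA6, at 0.46, 0.60 and 0.67. ITGA11 measured 0, 0 and 1.97 normalized counts in the controls and 794, 159 and 123 in the depleted samples, with depleted replicate 1 highest, as for PDGFRB.

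Ligands outside the listed members included genes with much wider differences than PDGFA, PDGFC and FGF2. PDGFB, the B chain that binds both receptors, measured 135, 77.3 and 48.2 normalized counts in the controls and 1119, 2697 and 4069 in the depleted samples, a log2 difference of 4.84 (limma adjusted p = 0.0021). PDGFD, the other PDGFRB ligand, held 3 reads over all controls, and its pooled-read ratio was 26.8 (exact 95% interval 8.80 to 133, counting error only). FGF1, acidic fibroblast growth factor, measured 32.6, 12.3 and 11.8 in the controls and 286, 1127 and 1158 in the depleted samples, and FGF5 measured 0, 0 and 2.95 in the controls and 82.4, 43.3 and 13.4 in the depleted samples. The FGF1 log2 difference was 5.33, and 6.0 without depleted replicate 1 (limma adjusted p = 0.00258). All 4 of these ligands were called upward, and no sample of 1 condition overlapped the other. They were 2 of 6 PDGF and VEGF ligands tested (median log2 difference 0.94) and 2 of 4 FGF ligands tested (median 3.66). The FGF list held 17 genes, of which 6 were analysed. PDGFD, FGF5 and FGF9 had control means of 0.984, 0.984 and 1.78 normalized counts and depleted means of 26.4, 46.4 and 24.0. These genes reached the mean required for testing only through the depleted samples. The FGF count and median, and PDGFD in the PDGF count, therefore depend on that filter. They cannot be compared with the 4.36% of all genes called upward. Without depleted replicate 1, PDGFD and FGF5 were not called, and edgeR did not call PDGFD. FGF9 was called there and by DESeq2 but not by limma on all samples.

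Of the genes that act around ligand and receptor, SULF1, which trims sulfate groups from heparan sulfate outside the cell, changed the most. It measured 25.1, 54.5 and 18.7 normalized counts in the controls and 34584, 3546 and 5565 in the depleted samples, a log2 difference of 8.17 (limma adjusted p = 0.00123). The difference was 7.18 without depleted replicate 1, its highest sample (limma adjusted p = 0.00149). With HS3ST3A1 it made 2 of 13 heparan sulfate-modifying genes called, both upward, beside 4.36% of all genes tested, with a list median of 0.17. Without depleted replicate 1 the count was again 2, with HS3ST3A1 lost and NDST1 gained, and DESeq2 called 5 of the 13. The co-receptor NRP1 rose by 2.44 on the log2 scale (limma adjusted p = 0.0101). It was 1 of 5 co-receptor, decoy and carrier genes (median log2 difference 0.10), beside 4.36% of all genes tested. Without depleted replicate 1 the count was 3 of 5, with FGFBP1 and NRP2 added. Both of these were lower in the depleted samples, with log2 differences of -6.10 and -1.63 in that fit. Among 10 heparan sulfate proteoglycans limma called 0, beside 6.33% of all genes tested, with 3 at an unadjusted p under 0.05. Of the alternatives, edgeR called 0 and DESeq2 1, and limma without depleted replicate 1 called GPC4. The median log2 difference of the 10 was 0.27.

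Genes for PDGF processing and binding moved in both directions, while the 2 listed activators of the C and D chains, PLAT and PLAU, both rose. PLAT, the tissue plasminogen activator that can activate the C chain, measured 6.27, 32.2 and 128 normalized counts in the controls and 11383, 1428 and 2929 in the depleted samples. It rose by 6.85 on the log2 scale (limma adjusted p = 0.00769), and by 6.02 without depleted replicate 1 (limma adjusted p = 0.0200). PLAU, the urokinase that can activate the D chain, rose by 4.73 (limma adjusted p = 5.1e-04). SPARC, a matrix protein that binds PDGF, rose by 4.62 (limma adjusted p = 0.012). The proprotein convertases PCSK5 and PCSK6 also changed: PCSK5 fell by 2.73 and PCSK6 fell by 3.08 on the log2 scale. FURIN, the other convertase listed, had a log2 difference of 0.20 and was not called (limma adjusted p = 0.721). These convertases are named here after their values were seen. In all, 5 of 7 processing and binding genes were called, 3 upward and 2 downward, beside 4.36% and 1.97% of all genes tested. SPARC, with a control mean of 5.85, reached the mean required for testing only through the depleted samples, so the upward count depends on that filter. The median of the list was 3.14. PCSK6 was not called by edgeR or without depleted replicate 1.

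Inside the cell, GAB2, a docking protein for receptor signalling, was the 1 adaptor or effector of 13 that limma called, with a log2 difference of 2.93 (limma adjusted p = 0.00509). That count stands beside 6.33% of all genes tested. The median of those 13 was -0.08, and DESeq2 called 2. Of 15 feedback and ETS genes that FGF signalling is known to induce or that bind its receptors, ETV1 (4.94) and FLRT2 (3.17) rose and FLRT3 (-2.82) fell on the log2 scale. The median of the 15 was 1.82, against -0.03 over all genes tested, and 7 had every depleted sample above every control and 1 below, beside 13.5% and 12.1% of all genes. The 3 of 15 called compare with 6.33% of all genes. FLRT3 was not called without depleted replicate 1. EGF, whose signalling drives the same feedback genes, was itself removed from the depleted medium.

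The splicing regulators that set the FGFR2 exon in epithelial cells, ESRP1 and ESRP2, were lower in every depleted sample but were not called. ESRP1 measured 5359, 4201 and 3617 normalized counts in the controls and 170, 1971 and 2263 in the depleted samples, with depleted replicate 1 lowest of all. For FGFR2 that replicate was lowest only among the depleted samples, at 23.8, above control replicate 2 at 13.5. Of 5 exon choice genes limma called 0, beside 6.33% of all genes tested, with 2 at an unadjusted p under 0.05, and edgeR and DESeq2 each called 0. The median of the 5 was -0.34. Of the other FGF homologous factors, limma called 0 of 2 tested, beside that 6.33%, with 0 at an unadjusted p under 0.05. For these factors edgeR and DESeq2 each called 0, while limma without depleted replicate 1 called FGF13. FGF13 measured 28.8, 17.6 and 14.8 normalized counts in the controls and 1.83, 114 and 145 in the depleted samples. Of 118 genes in these pathway lists together, 88 were analysed, and 16 genes of 85 tested rose and 3 fell, where 4.36% and 1.97% of all genes tested did. Some that rose, PDGFD, FGF5 and SPARC among them, were tested only through their depleted samples. The upward count therefore cannot be compared with that 4.36%.

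**Figure D4:**
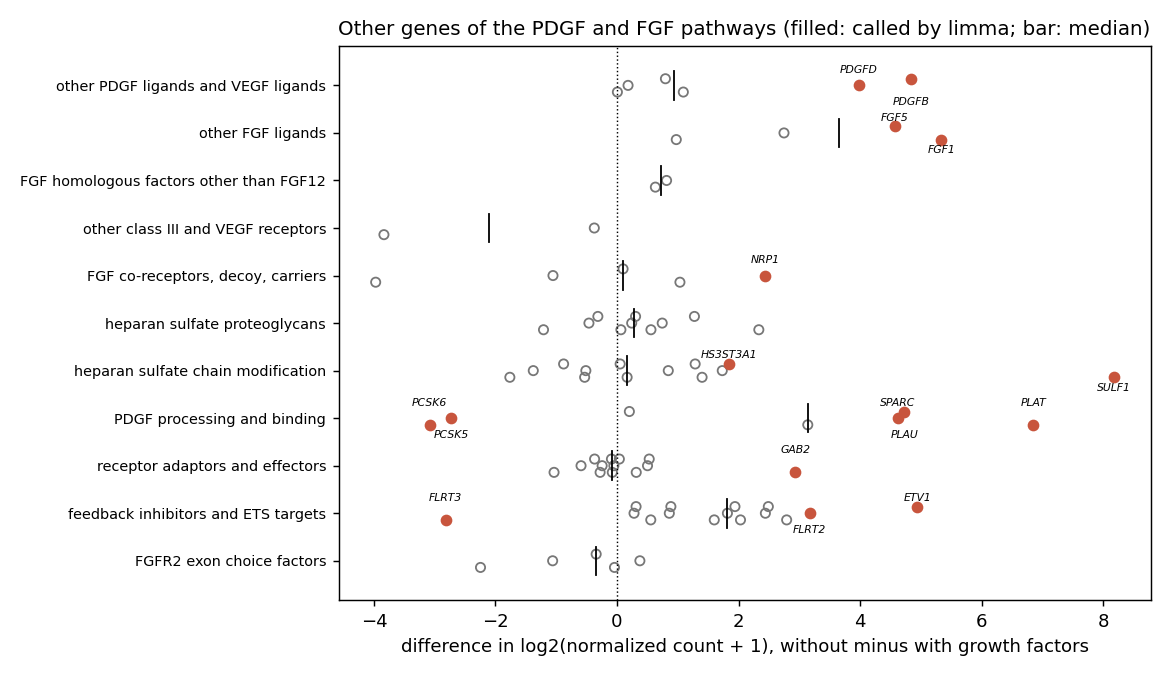
Log2 difference, depleted minus control, on the log2(normalized count + 1) scale for each tested gene of the wider PDGF and FGF lists shown, with filled points for genes called by limma and a bar at each list's median. The called genes run from SULF1 at 8.17 to PCSK6 at -3.08, and 0 is marked by the dotted line.

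Mesenchymal and fibroblast markers were higher in the same samples as the PDGF receptors, while the summed pericyte, endothelial and leukocyte markers overlapped between conditions. Such a sum can rest on 1 gene. In control replicate 1 ANPEP made 19843 of the pericyte sum of 23027, PECAM1 999 of the endothelial 1009 and CD14 882 of the leukocyte 884. The overlap of a sum therefore does not describe each marker in it. All 4 mesenchymal markers (VIM, CDH2, FN1 and ZEB1) and 4 of 7 fibroblast markers tested were called upward, where 4.36% of all genes tested were. The authors had already reported CDH2, FN1 and VIM as higher in these data. LUM and DPT, with control means of 1.58 and 2.92, reached the mean required for testing only through the depleted samples. THY1 and CD34 were too low to be tested. The fibroblast count depends on that filter and cannot be compared with the 4.36%. The fibroblast sum was 803 to 1726 normalized counts in the controls and 15417 to 32314 in the depleted samples. LUM, a defining fibroblast proteoglycan, measured 3.76, 0 and 0.984 in the controls and 5491, 2086 and 1981 in the depleted samples. The pericyte marker RGS5 measured 26.3, 15.2 and 20.7 in the controls and 6491, 188 and 219 in the depleted samples, with depleted replicate 1 highest, as for PDGFRB, while the summed pericyte and smooth muscle markers overlapped at 10943 to 23027 and 13028 to 17706. Of 10 pericyte and smooth muscle markers 7 were analysed and 6 tested. Of these 2, RGS5 and ACTA2, were called upward, beside 4.36% of all genes tested. CSPG4, NOTCH3 and ANPEP lay below the controls in every depleted sample with log2 differences of -2.14, -3.04 and -1.56 and were not called. The median of the 6 was -0.03. The RGS5 log2 difference was 4.93, and 3.26 without depleted replicate 1 (limma adjusted p = 0.0149). Of the 10 epithelial markers 1, TP63, was called and lower, beside 1.97% of all genes tested. Without depleted replicate 1, 2 were called, TP63 lower and KRT17 higher (log2 difference 3.16, limma adjusted p = 0.0253). In that fit the log2 differences of CDH1, KRT5 and EPCAM were -0.19, -0.54 and 0.34, against -1.67, -2.04 and -0.98 with all samples. The epithelial sum overlapped at 60476 to 102154 and 58117 to 192499. KRT17 alone made 123480 of the 192499 in depleted replicate 3. Of the endothelial markers CDH5 was called upward, 1 of 2 tested, where 4.36% of all genes tested were. With a control mean of 5.93, CDH5 reached the mean required for testing only through the depleted samples, so that count depends on the filter. The endothelial sum was 100 to 1009 in the controls and 240 to 1610 in the depleted samples. The leukocyte markers summed to 272 to 884 in the controls and 86.5 to 656 in the depleted samples. CD14, the 1 leukocyte marker tested, had a log2 difference of -1.53 and was not called, and PTPRC, too low to be tested, was at 0 to 1.97 in the controls and 10.1 to 13.8 in the depleted samples. The part of these cell type markers in the receptor result was not tested, and in bulk RNA more cells with a transcript and more transcript per cell cannot be told apart.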

How the data were processed

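The labels place 3 MCF10A samples with growth factors and 3 without them in the 2 groups. The design text instead speaks of 2 replicates, so the count of 3 follows the labels. Per the labels and methods, the authors sequenced stranded total RNA libraries as 100-base single-end reads, trimmed them with cutadapt 1.6, aligned them to hg38 with TopHat2, counted reads per gene with HTSeq 0.6 and normalized the counts with DESeq2 1.8.1. The strand setting of the counting is not given in the sources used here. The deposited signal is this normalized count, for 19198 Ensembl genes. Gencode 44 named 18913 of them and 285 stayed unnamed. Whole reads were recovered: 100% of values lay within 0.01 reads of a whole number.

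Differences were tested with limma 3.58.1 in R 4.3.3 (trended eBayes, pseudocount 1, mean of at least 10, Benjamini-Hochberg over 16988 genes, two-sided), and the procedure was tested on simulated data. edgeR 4.0.16 and DESeq2 1.42.0 on the recovered reads were alternatives and called 971 and 2112 genes. The wider lists name up to 3 called genes each, by size of difference with a mean of at least 50, and short lists may be named in full. Nearest genes have a mean of at least 100. Members and lists were chosen with earlier results of these data known. 1 of the wider lists is not reported here by itself, but its genes count in the totals over these lists. Promoters come from RefSeq. Intervals on reads cover counting error only.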

Additional observations from a re-analysis of the deposited data

How the results depend on the processing

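PDGFRA and PDGFRB were called in each of the 18 alternatives that gave them an adjusted p. With a mean of at least 50 required, the number of members called was 1, because PDGFRA was not tested. DESeq2 gave PDGFRB no adjusted p and called 2112 genes in all against 1076 by limma. Leaving out 1 sample gave 453 (without depleted replicate 2) to 2474 (without control replicate 3) genes called, 2 to 3 members, and 11 (without depleted replicate 2) to 27 (without control replicate 3) genes of the wider lists against 19. The FGF2 log2 difference ran from -0.51 to 0.37 over these fits. It was -0.033 with the transcript length correction, and also -0.033 with that correction and the replicate block. The cause was not tested. The labels do not say whether same-numbered samples were paired. Same-numbered samples had correlations of deviations of -0.07, -0.28 and -0.32, and differently numbered samples of -0.07 to 0.29. Deviations from the mean of 3 samples are tied to each other, so these correlations cannot settle the pairing. With the replicate block 967 genes and 3 members were called, FGF12 included (limma adjusted p = 0.00582). Of 168 values of members under alternatives, 159 kept direction and side of the threshold, 5 newly passed it and 4, all of FGF2, changed sign. Low depth limits PDGFRA, FGFR4 and the controls of FGF12, where a value rests on few reads.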

Other observations

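Of 18 protein-coding genes next to the members 13 were tested. Among these limma called 0, beside 6.33% of all genes, with 2 at an unadjusted p under 0.05, while edgeR and DESeq2 each called 0. Of the 4 neighbours of PDGFRA and PDGFRB CSF1R was the 1 tested. It is a related receptor kinase of macrophages, lies 466 bases from PDGFRB and measured 169, 148 and 152 normalized counts in the controls and 11.9, 434 and 318 in the depleted samples. Depleted replicate 1, the highest sample for PDGFRB, was the lowest for CSF1R. KDR, the main VEGF receptor of endothelial cells, measured 778, 32.2 and 66.9 in the controls and 0, 24.9 and 22.4 in the depleted samples, and was not called. FGFBP1, a carrier that releases FGF2 from the matrix, measured 10847, 1461 and 405 in the controls and 2274, 15.1 and 44.7 in the depleted samples, and the groups overlapped.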
